A study of Mus musculus with 6 samples.

Results

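The genes described here are the cytosolic ribosomal protein genes, which encode the proteins of the 40S and 60S subunits of the cytoplasmic ribosome. They were chosen by name and annotation: protein-coding genes of GENCODE M21 whose symbol is Rpl or Rps with digits and an optional letter a, x or l, or Rplp0, Rplp1, Rplp2 or Rpsa, with a mean normalized count of at least 10 over the samples, leaving out names with -ps and the S6 kinases. The rule found 75 genes among the 14969 tested, 29 of the small and 46 of the large subunit, on 19 chromosomes. Messenger RNA of the prefrontal cortex of C57BL/6J mice was sequenced at postnatal day 28 in 3 Hetero samples, whose genotype label is Cyfip2 mutant, and 3 wild-type (WT) samples. The Cyfip2 protein belongs to the WAVE complex, which acts on actin assembly. The labels do not say which part of Cyfip2 is altered, nor whether each sample came from a separate animal, so each p-value reflects only how these samples vary, and part of that variation may be technical.

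A ribosome carries a single copy of nearly every ribosomal protein, and cells keep the supply of these proteins in balance with each other and with ribosomal RNA. In mammals the balance is set largely by translation: the messages begin with a terminal oligopyrimidine (TOP) tract, a C followed by a run of pyrimidines at the 5′ end, which lets mTOR and the protein LARP1 switch their translation on and off together. In neurons ribosomes also reach dendrites, and several ribosomal protein messages are found in dendrites and axons.

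A pyrimidine tract near the RefSeq start site is shown for 8 of the genes that recur below. The tract is in capitals, to show what the genes share apart from their names. Each window holds 30 bases around the tract on GRCm38.p6, 5′ to 3′ on the gene's own strand. The windows of Rps25 and Rps27l lie wholly before the listed start, and that of Rpl39 lies wholly after it.
Rps6 (chr4:86857349-86857378, minus): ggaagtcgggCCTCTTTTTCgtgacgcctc
Rpl35 (chr2:39005115-39005144, minus): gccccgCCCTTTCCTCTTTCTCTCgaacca
Rps25 (chr9:44407684-44407713, plus): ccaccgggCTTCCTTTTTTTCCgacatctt
Rpl14 (chr9:120571501-120571530, plus): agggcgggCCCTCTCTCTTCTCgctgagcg
Rpl15 (chr14:18270968-18270997, minus): gagaaagCCTTCTTCCTTTCCTCTggcggc
Rps26 (chr10:128626484-128626513, minus): agccgccggatCCTCTTTCgagtcttggct
Rpl39 (chrX:37085173-37085202, minus): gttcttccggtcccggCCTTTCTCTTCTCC
Rps27l (chr9:66946053-66946082, plus): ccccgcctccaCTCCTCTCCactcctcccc
RefSeq promoter windows, from 250 bases before to 50 after the listed start, were matched by symbol for 55 of the 75 genes. A tract of at least 8 pyrimidines that opens with C and begins between 30 bases before and 40 after the listed start was found in 40 of the 55, or 72.7%, against 24.3% of the 26742 genes with such windows. The tracts of these windows ran to 18 bases in Rpl35 and only 8 in Rps26, and that of Rpl39 reached the end of its promoter window. A match is a run of letters near a listed start and not a mapped 5′ end.

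The promoter windows also held short motifs known from promoters of highly expressed genes. The motifs were counted over the whole window, so a match can lie before or after the listed start. CCGGAAG, a core recognised by ETS factors such as GABP, was present on either strand in 24 of the 55 genes, or 43.6%, against 2674 of the 26742 genes with such windows. TCTCGCGA is part of the palindromic element TCTCGCGAGA, found in many promoters without a TATA box. TCTCGCGA was present on either strand in 10 genes, or 18.2%, against 1.14%, and the full palindrome was not required. GGGCGG, the GC box bound by Sp1, was present in 63.6% against 38.5% on either strand, and AAGATGG, a core bound by YY1, in 14.5% against 7.32%. TATAAA on the gene's strand was present in 9.09% against 9.74%. The last 100 bases before the listed start are shown for 4 genes in which the motifs lie close to it, with CCGGAAG, TCTCGCGA and GGGCGG or their reverse complements in capitals.
Rpl19 (chr11:98026610-98026709, plus): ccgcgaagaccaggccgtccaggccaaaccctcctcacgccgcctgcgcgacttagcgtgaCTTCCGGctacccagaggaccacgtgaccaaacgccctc
Rps7 (chr12:28635954-28636053, minus): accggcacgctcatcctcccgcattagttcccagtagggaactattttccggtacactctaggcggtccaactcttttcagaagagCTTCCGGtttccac
Rpl26 (chr11:68901466-68901565, plus): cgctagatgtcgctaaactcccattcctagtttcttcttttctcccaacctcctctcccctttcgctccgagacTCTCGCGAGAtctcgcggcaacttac
Rpl13 (chr8:123102250-123102349, plus): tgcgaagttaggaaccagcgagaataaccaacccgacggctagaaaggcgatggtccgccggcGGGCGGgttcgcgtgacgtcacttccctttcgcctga
Rpl19 and Rps7 carry the ETS core on the reverse strand, Rpl26 a palindromic element that reads on both strands, and Rpl13 a GC box.

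The libraries were estimated from the spacing of low values to hold about 26500000, 29400000 and 43900000 reads in Hetero samples 1, 2 and 3, and about 35700000, 25600000 and 25500000 in WT samples 1, 2 and 3. Cyfip2 read 20959, 21237 and 18285 normalized counts in the Hetero samples and 31933, 30496 and 27503 in the WT samples, a change of -0.57 on the log2(value + 1) scale used throughout, with groups that did not overlap. Its adjusted p was 0.312 (limma, Benjamini-Hochberg over all 14969 genes), and the exact permutation p was 0.1, the smallest that 3 against 3 allows. In limma Cyfip2 passed with the replicate numbers as a block (adjusted p = 0.0016) and with length and GC trends removed (adjusted p = 0.022), and in the other alternatives run it did not. All 11 neuron markers of the tissue check were detected. So were all 6 striatal markers, with summed counts of 3671 to 3868 in Hetero and 3125 to 3656 in WT samples. Of these 6, 2 were fitted higher and 4 lower, none past the adjusted threshold. Whether the dissections were alike was not tested. Hetero sample 3 stood apart: over all tested genes its median absolute log2 difference from another sample was 0.12 to 0.15, while pairs of the other 5 samples lay 0.09 to 0.14 apart. Over the 75 ribosomal protein genes these ranges were 0.12 to 0.22 for Hetero sample 3 and 0.05 to 0.09 for the others.

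The ribosomal protein messages were abundant and unequal. They made up 0.787%, 0.818% and 0.929% of the summed normalized counts in Hetero samples 1, 2 and 3, against 0.835%, 0.802% and 0.815% in WT samples 1, 2 and 3, so that Hetero sample 3 was above all WT samples and Hetero sample 1 below all. The median gene had a mean of 2875 normalized counts over the 6 samples, and 72 of the 75 lay between 1000 and 12000. Only Rpl12, Rpl27 and Rps27l were lower. For Rpl27 this is its own row, and a copy of identical coding sequence, described below, held 89.2% of their sum. Divided by transcript length in kilobases, the levels ran from 268 to 20378 normalized counts per kb with a median of 4051, and the 40S median of 4150 was near the 60S median of 3980. In bulk tissue, fewer cells of a type and less RNA per cell cannot be told apart.

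The highest level per kb belonged to Rplp1, at 20378 normalized counts per kb, which forms with Rplp2 the acidic dimers of the stalk that recruits elongation factors. Rpl41, the shortest ribosomal protein, followed at 13313 normalized counts per kb, Rps29, a zinc-binding protein of the 40S head, at 10631, and Rps15, needed for nuclear export of the 40S subunit, at 10338. At the other end stood Rps27l, a p53-inducible relative of Rps27, at 268 normalized counts per kb, Rpl12 at the stalk base at 295, Rpl27 at 367 and Rps20 at 525. Rps20 is represented by a long transcript of 3706 bases; its own count of 1994 ± 135 in Hetero and 1896 ± 38.8 in WT samples (SD, n = 3 each) was above those of Rpl12, Rpl27 and Rps27l. Rpl12 read 319, 448 and 393 normalized counts in the Hetero samples and 329, 342 and 368 in the WT samples, and the groups overlapped.

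The comparison between the genotypes asked whether the supply of ribosomal protein messages differed in Cyfip2 mutant cortex. No ribosomal protein gene passed an adjusted p of 0.05 in limma (0 of 75), as no gene of the whole table did (0.0% of 14969), and none of the 75 reached an unadjusted p of 0.05, where 1.66% of all genes were higher and 2.17% lower in Hetero at that p. The fitted log2 change, Hetero minus WT, was positive in 54 of the 75 genes, or 72.0%, against 49.1% of all tested genes. Its median was 0.03 over the 75 genes and -0.0019 over all genes. The 40S genes had a median of 0.04 with 22 of 29 positive, and the 60S genes a median of 0.03 with 32 of 46 positive. These counts turned on 1 sample: without Hetero sample 3 the fitted change was positive in 23 of the 75 genes and the median was -0.04.

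The changes were small and well bounded for most genes. They ran from -0.10 in Rpl27 to 0.15 in Rps16, and 67 of 75 were under 0.1 in size on the log2 scale. When single samples were left out, Rpl27 ran from -0.21 without WT sample 2 to -0.03 without WT sample 3, and Rps16 from 0.08 without Hetero sample 3 to 0.23 without Hetero sample 1. The 95% interval lay within a 1.25-fold change in either direction for 69 of the 75 genes, or 92.0%, against 55.5% of all tested genes. The median standard error of the log2 change was 0.072 for the ribosomal protein genes and 0.097 over all genes. The 6 genes with wider intervals were Rpl12, Rpl17, Rpl27, Rpl35, Rps27a and Rps27l. All 3 Hetero values lay above all 3 WT values in 1 of the 75 genes, against 4.4% of all genes, and below them in 0, against 4.32%.

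**Figure D1:**
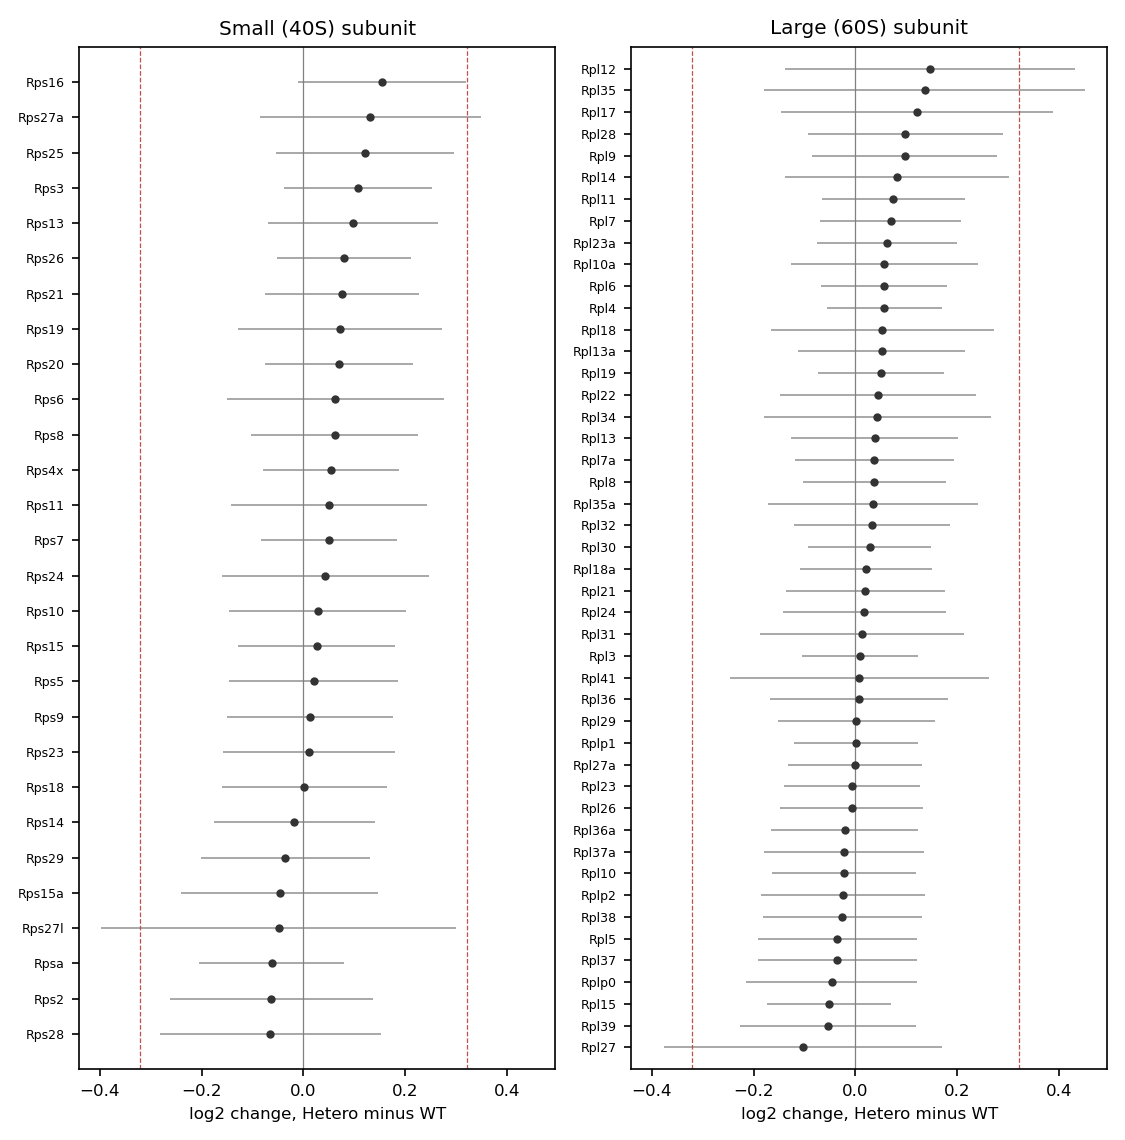
Log2 change of 74 of the ribosomal protein genes, Hetero minus WT (points), with its 95% interval from limma (lines), for the 40S genes (left) and the 60S genes (right), ordered by size of change; the dashed lines mark a 1.25-fold change. All intervals shown reach 0, the changes run from -0.10 (Rpl27) to 0.15 (Rps16), and 6 intervals cross a dashed line.

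Among the 40S genes, Rps16, whose tail touches the initiator tRNA in the P site, had the smallest p. The gene lies on chromosome 7 at 28350652 to 28353155, plus strand (GRCm38, as for all positions of genes here). It read 2289, 2528 and 2785 normalized counts in the Hetero samples and 2264, 2272 and 2273 in the WT samples. Every Hetero sample was above every WT sample, Hetero sample 1 by a small margin, and among the genes' own rows it was the only one of the 75 whose groups did not overlap. With its copy Rps16-ps2, identical over 441 coding bases, the sum read 2289, 2528 and 2826 in Hetero and 2329, 2272 and 2319 in WT samples, and Hetero sample 1 fell inside the WT range. In limma its log2 change was 0.15 ± 0.07 (standard error), at an unadjusted p of 0.064 and an adjusted p of 1.00 (Benjamini-Hochberg over all genes).

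Rps3, a protein of the mRNA entry channel, read 3818, 4260 and 4285 normalized counts in the Hetero samples and 3958, 3894 and 3612 in the WT samples. Hetero sample 1 lay among the WT samples and the other Hetero samples above them, with a log2 change of 0.11 ± 0.07 (standard error). Rps25, known for its part in initiation at internal ribosome entry sites, read 1889, 1925 and 2098 in Hetero and 1993, 1667 and 1784 in WT samples, a log2 change of 0.12 ± 0.08. Here WT sample 1 lay above both lower Hetero samples. Rps27a is made as a fusion with ubiquitin and so also supplies ubiquitin. It read 2441, 2704 and 3164 in Hetero and 2740, 2388 and 2425 in WT samples, with Hetero sample 3 highest and the other Hetero samples among the WT ones. Its log2 change of 0.13 ± 0.10 ran from 0.03 to 0.22 when single samples were left out. Rps13 read 1646, 1776 and 1973 in Hetero and 1724, 1657 and 1648 in WT samples, with a log2 change of 0.10 ± 0.07. Hetero sample 1 was below all WT samples and the others above them. The changes of Rps3, Rps25 and Rps13 moved with single samples. Rps3 fitted 0.07 without WT sample 3 and 0.16 without Hetero sample 1, Rps25 0.06 without WT sample 2 and 0.19 without WT sample 1, and Rps13 0.03 without Hetero sample 3 and 0.16 without Hetero sample 1.

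Rps6, the ribosomal protein that S6 kinases phosphorylate downstream of mTOR, read 3440, 3604 and 4276 normalized counts in the Hetero samples and 3772, 3225 and 3824 in the WT samples. The groups overlapped, and the log2 change of 0.06 ± 0.09 was smaller than its standard error. Rpsa (chromosome 9, 120127689 to 120132369, plus strand), which is also known as the laminin receptor, was among the most abundant, with 8740, 9157 and 10164 in Hetero and 9420, 9718 and 10108 in WT samples. Hetero samples 1 and 2 lay below all WT samples and Hetero sample 3 above them, and the log2 change was -0.06 ± 0.06. Rps2, at the mRNA entry, read 7846, 7849 and 9707 in Hetero and 8495, 8437 and 9499 in WT samples, a log2 change of -0.06 ± 0.09, with the same split of the Hetero samples. Both sizes rested on single samples: Rpsa fitted -0.12 without Hetero sample 3 and -0.01 without Hetero sample 1, and Rps2 -0.16 without Hetero sample 3 and -0.0072 without WT sample 3. Rps28, near the mRNA exit, read 1156, 1311 and 1495 in Hetero and 1276, 1451 and 1402 in WT samples, and its log2 change of -0.07 became 0.03 without Hetero sample 1. Rps4x, which lies on the X chromosome, had a log2 change of 0.06 ± 0.06, with 4536, 4798 and 5105 normalized counts in Hetero and 4667, 4469 and 4751 in WT samples, and the groups overlapped.

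Another 4 of the genes, Rps19, Rps24, Rps26 and Rpl35a, are among those known from Diamond-Blackfan anaemia. In it people have lost a single copy of a ribosomal protein gene. Their log2 changes were 0.07 ± 0.09 in Rps19, 0.04 ± 0.09 in Rps24, 0.08 ± 0.06 in Rps26 and 0.03 ± 0.09 in Rpl35a (standard errors), and none passed the test. The most even of them was Rps26, with 1858, 1920 and 2013 normalized counts in the Hetero samples and 1792, 1819 and 1864 in the WT samples, where only Hetero sample 1 fell among the WT samples. Its change was 0.05 without Hetero sample 3. The most commonly affected gene in people, Rps19, read 1381, 1489 and 1761 in Hetero and 1525, 1451 and 1409 in WT samples, with Hetero sample 1 lowest and Hetero sample 3 highest of all.

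On the large subunit, the stalk genes had fitted changes of both signs, none past the test. Rplp0, the base of the stalk, read 5266, 5516 and 6214 normalized counts in the Hetero samples and 5578, 5651 and 6306 in the WT samples, and its highest value was in WT sample 3. Rplp1 read 9580, 10182 and 10770 in Hetero and 10026, 10114 and 10340 in WT samples, and Rplp2 3157, 3232 and 3587 in Hetero and 3128, 3590 and 3426 in WT samples. The log2 changes were -0.05 ± 0.07, 0.00093 ± 0.05 and -0.02 ± 0.07 for Rplp0, Rplp1 and Rplp2, and in all 3 the groups overlapped. Rpl5 and Rpl11, which join the 5S ribosomal RNA and can bind the p53 regulator MDM2, had log2 changes of -0.03 ± 0.07 and 0.07 ± 0.06. Rpl11 read 2830, 3003 and 3234 in Hetero and 2883, 2914 and 2800 in WT samples, with Hetero sample 1 inside the WT range and the other Hetero samples above it. Rpl5 read 1288, 1304 and 1439 in Hetero and 1316, 1440 and 1372 in WT samples, and Hetero sample 3 and WT sample 2 lay highest.

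Of the genes around the catalytic centre and the exit tunnel, Rpl3, which reaches the peptidyl transferase centre, had the highest count of all, with 10462, 10749 and 11501 in Hetero and 10743, 10775 and 10945 in WT samples and a log2 change of 0.01 ± 0.05. Rpl4, of the exit tunnel, read 8369, 8058 and 8759 in Hetero and 8188, 7976 and 8040 in WT samples, with a log2 change of 0.06 ± 0.05 and 1 of the smallest spreads within groups, 0.04 on the log2 scale. Rpl17, of the same tunnel, was less even, with 3481, 4068 and 4512 in Hetero and 4299, 3354 and 3439 in WT samples and a spread within groups of 0.19. In Rpl17, Hetero sample 1, WT sample 2 and WT sample 3 formed the low end, and Hetero sample 3 and WT sample 1 the high end. Rpl39, an X-linked tunnel protein, read 1158, 1266 and 1383 in Hetero and 1363, 1306 and 1273 in WT samples, and its log2 change of -0.05 became 0.01 without Hetero sample 1. Rpl10, which completes the maturation of the 60S subunit, is X-linked too; its own row read 1867, 2112 and 1978 in Hetero and 2007, 1984 and 2050 in WT samples. X-linked Rpl36a read 1657, 1664 and 1826 in Hetero and 1787, 1757 and 1673 in WT samples, a log2 change of -0.02 ± 0.06, with overlapping groups.

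The remaining large subunit genes that stood at an end of a ranking were Rpl15, Rpl27, Rpl30, Rpl27a, Rpl35, Rpl14, Rpl18 and Rpl41. Rpl15 read 3945, 3840 and 4134 in Hetero and 4241, 4126 and 3984 in WT samples, a log2 change of -0.05 ± 0.05, and its 2 lowest values were in Hetero samples; without Hetero sample 3 it fitted -0.08 and without Hetero sample 2 -0.03. Rpl27 (chromosome 11, 101442298 to 101445529, plus strand) read 215, 220 and 215 in Hetero and 243, 200 and 259 in WT samples, and all Hetero values lay within the WT range. Rpl30 and Rpl27a were among the most even, with log2 spreads within groups of 0.03 and 0.05. Rpl30 read 2382, 2511 and 2451 in Hetero and 2390, 2437 and 2373 in WT samples, and Rpl27a 1786, 1910 and 1935 in Hetero and 1871, 1909 and 1853 in WT samples. Rpl35, beside the tunnel exit (chromosome 2, 39001580 to 39005624, minus strand), varied most, with a spread of 0.23 and values of 1121, 1301 and 1588 in Hetero and 1410, 1099 and 1125 in WT samples. Rpl35 was high in Hetero sample 3 and WT sample 1 and low in Hetero sample 1, WT sample 2 and WT sample 3. Rpl41 had the same samples at its high and low ends, with 4988, 5777 and 6781 in Hetero and 6425, 5444 and 5492 in WT samples.

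The level of the ribosomal protein genes differed more between samples than between genotypes. The mean log2 deviation of the 75 genes from their own 6-sample means was -0.08, -0.01 and 0.14 in Hetero samples 1, 2 and 3, against 0.02, -0.05 and -0.02 in WT samples 1, 2 and 3. Hetero sample 3 was thus the highest sample and Hetero sample 1 the lowest, and the WT samples lay between them. Hetero sample 3 was the highest of the 6 samples in 63 of the 75 genes, or 84.0%, against 22.1% of all tested genes. It was highest in 27 of 29 genes of the 40S subunit and 36 of 46 of the 60S subunit. In 65 of the 75 it was above all WT samples, against 27.9% of all tested genes. Hetero sample 1 was the lowest of the 6 in 34 genes, or 45.3%, against 14.5% of all genes. The level averaged 0.01 ± 0.11 in Hetero and -0.01 ± 0.03 in WT samples (SD, n = 3 each), a difference of 0.03, smaller than the spread among the Hetero samples.

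**Figure D2:**
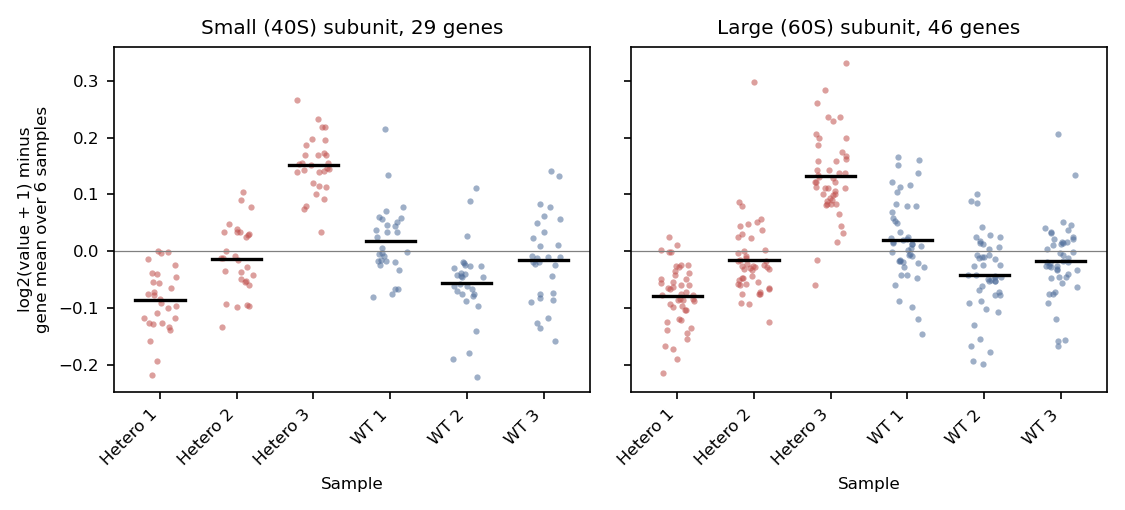
Deviation of each ribosomal protein gene from its own mean over the 6 samples (points, log2(value + 1)), for 29 genes of the 40S and 46 of the 60S subunit. The Hetero samples are red and the WT samples blue, and bars mark means. The points of Hetero 3 lie above those of most other samples in both subunits, and those of Hetero 1 lie lowest or near it.

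The genes that lay highest in Hetero sample 3 were Rpl35, Rpl14, Rps27a and Rpl18, at 0.40, 0.34, 0.32 and 0.31 above the mean of the other 5 samples on the log2 scale. Rpl14 read 2137, 2207 and 2794 normalized counts in the Hetero samples and 2322, 2133 and 2244 in the WT samples, and Rpl18 1570, 1669 and 2064 in Hetero and 1654, 1651 and 1772 in WT samples. In both, Hetero samples 1 and 2 lay within or near the WT range, and Hetero sample 3 alone was far above it. At the other end, Rpl27, Rpl10, Rpl30 and Rpl15 differed by -0.07, -0.02, 0.02 and 0.04 in that sample. These are the genes' own rows, and Rpl27, Rpl10 and Rpl15 each have a copy of identical coding sequence, described below. With copies summed, Hetero sample 3 was the highest sample for Rpl10 (4942) and Rpl27 (2207). For Rpl15 its sum of 4402 was below only that of WT sample 1, 4437. The 2 deepest libraries, Hetero sample 3 and WT sample 1, had the 2 highest levels of the ribosomal protein genes, 0.14 and 0.02. Over all tested genes the levels of these samples were -0.0080 and -0.0014. Without both, the fitted change was positive in 30 of 75 genes with a median of -0.02, and the part of depth in the pattern was not tested.

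Transcript length moved with the level of Hetero sample 3 in other genes too. The ribosomal protein transcripts are short, with a median length of 729 bases against 2811 over all tested genes. The median difference of Hetero sample 3 from the other 5 samples was 0.11 in the 197 other genes under 500 bases and -0.13 in the 2578 genes over 5000 bases. In the same classes up to 2500 bases, ribosomal protein genes had medians of 0.18, 0.17, 0.19, 0.13 and 0.11, against 0.11, 0.12, 0.10, 0.08 and 0.05 in other genes. Among short and abundant genes (under 1000 bases, mean of at least 1000), the median was 0.18 in 56 ribosomal protein genes and 0.12 in 251 other genes, of which 59.0% were highest in Hetero sample 3. With smooth trends of length and GC content removed from every sample, the level of the 75 genes became -0.07, 0.03 and 0.08 in Hetero samples 1, 2 and 3, against 0.03, -0.02 and -0.04 in WT samples 1, 2 and 3. Hetero sample 3 was still highest, and Hetero sample 1 lowest.

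**Figure D3:**
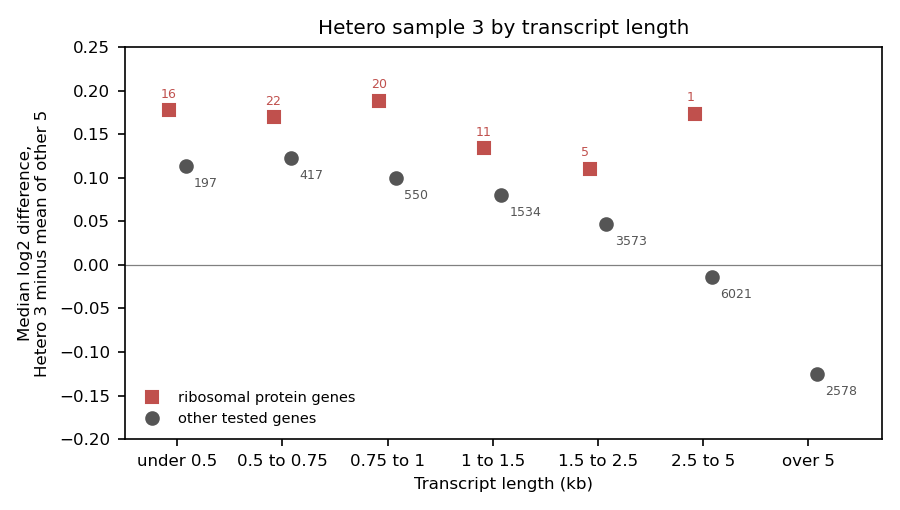
Median log2 difference of Hetero sample 3 from the mean of the other 5 samples, by transcript length class (kb), for ribosomal protein genes (squares) and all other tested genes (circles), with the number of genes beside each mark. The circles run from 0.11 in the shortest class to -0.13 in the longest, and the squares lie above the circles in every class that has them, the longest of which holds a single ribosomal protein gene.

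Blood markers were also high in Hetero sample 3. All 5 globin and erythroid markers were highest there, none was at 0 in any sample, and their summed normalized count ran from 21029 to 52503 in Hetero and from 14808 to 46065 in WT samples. As a mean log2 deviation the blood level was 0.97 in Hetero sample 3 and 0.79 in WT sample 3, where the ribosomal protein level was -0.02. Of the choroid plexus list 2 of 5 markers passed the filter, with a summed count of 64.2 to 87.6 in Hetero and 35.1 to 55.5 in WT samples.

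Markers of glia and of vessels were also uneven between the samples, and none of them was at 0 in any sample. All 10 oligodendrocyte markers were above their own means in Hetero sample 3 and all 10 below them in Hetero sample 1, with levels of -0.27, -0.06 and 0.16 in Hetero samples 1, 2 and 3, against -0.30, 0.08 and 0.38 in WT samples 1, 2 and 3. The lowest and the highest sample of that list were thus WT samples, and its summed count ran from 101368 to 132770 in Hetero and from 95809 to 154563 in WT samples. All 8 markers of oligodendrocyte precursors were lowest in Hetero sample 1, and their level was -0.28, -0.06 and 0.0021 in Hetero samples 1, 2 and 3, against 0.04, 0.06 and 0.24 in WT samples 1, 2 and 3. All 8 were fitted lower, with a median log2 change of -0.24, none past the adjusted threshold, and their sum ran from 8629 to 10251 in Hetero and from 10338 to 12116 in WT samples. Of 11 microglial markers 7 were lowest in Hetero sample 1 and all 11 were fitted lower, with a median of -0.10; their level was -0.14, -0.07 and 0.02 in Hetero samples 1, 2 and 3, against 0.01, 0.07 and 0.10 in WT samples 1, 2 and 3, and their sum 13769 to 15324 in Hetero and 14705 to 16493 in WT samples.

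In these 3 lists Hetero sample 1 was the lowest Hetero sample and Hetero sample 3 the highest. The ribosomal protein level had the same order among the Hetero samples. Among the WT samples the order differed. WT sample 1 had the highest ribosomal protein level of that group, 0.02, but the lowest level of each of these 3 lists. Of 10 astrocyte markers 8 were fitted lower. Their levels were -0.11, -0.02 and 0.05 in Hetero samples 1, 2 and 3. In WT samples 1, 2 and 3 they were -0.06, 0.08 and 0.07. The order of the Hetero samples was again the same. It also held for 8 endothelial markers, at -0.11, 0.0082 and 0.11 in Hetero samples 1, 2 and 3, against -0.01, -0.13 and 0.13 in WT samples 1, 2 and 3. The summed counts ran from 175873 to 188478 in Hetero and from 181713 to 205312 in WT samples for astrocytes, and from 9572 to 10779 in Hetero and from 9518 to 11060 in WT samples for endothelium. Of 8 meningeal markers 7 were fitted higher, with a median log2 change of 0.27 and levels of -0.02, 0.32 and 0.19 in Hetero samples 1, 2 and 3, against 0.34, -0.37 and -0.47 in WT samples 1, 2 and 3; their sum ran from 3151 to 4063 in Hetero and from 2530 to 4046 in WT samples. The neuron markers were more even, with levels of 0.04, -0.01 and -0.02 in Hetero samples 1, 2 and 3, against 0.02, -0.02 and -0.02 in WT samples 1, 2 and 3. The part of other cell types in the ribosomal protein values was not tested.

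Related pairs of genes were compared within samples, as the log2 ratio of 1 to the other. The 5 pairs were tested with exact permutation tests over the 20 assignments of samples, whose smallest p is 0.1, with adjustment over the 5. Rpl22l1 to Rpl22, a pair that can replace each other in the 60S subunit, had log2 ratios of -2.24, -1.96 and -1.90 in the Hetero samples and -1.98, -1.93 and -2.08 in the WT samples, an average difference of -0.04 (exact p = 0.9). Rpl36al to Rpl36a had -0.61, -0.61 and -0.57 in Hetero and -0.70, -0.71 and -0.61 in WT samples, a difference of 0.07 (exact p = 0.2, adjusted 0.333). Only WT sample 3 reached the Hetero range in that pair. Rpl7l1 to Rpl7 had -1.84, -1.83 and -1.88 in Hetero and -1.82, -1.80 and -1.78 in WT samples, a difference of -0.05 with groups that did not overlap (exact p = 0.1, adjusted 0.333). The ratio of Rps4l, annotated as a pseudogene, to Rps4x differed by -0.24 (exact p = 0.2), and that of Rplp1 to Rplp2 by 0.02 (exact p = 0.8). None of the 5 passed the threshold, which the design cannot reach.

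Ribosomal protein genes have many near-identical copies, and the counts of some genes depend on how reads were divided between them. The copies named here were chosen after their values were seen. Rps27 itself, with a mean of 6.84 normalized counts, did not pass the filter, while its copy Rps27rt on chromosome 9 held 99.5% of their sum. Rps27rt read 1242, 1327 and 1416 in the Hetero samples and 1376, 1134 and 1195 in the WT samples. The coding sequences of the pair are identical over 255 bases, whereas that of Rps27l differs from Rps27 at 59 positions, an identity of 76.9%. The first 30 coding bases of the identical pair and bases 176 to 205 of the differing pair, from GENCODE M21 transcripts on GRCm38, are shown to set an identical pair beside a differing one, with differing bases in capitals.
Rps27, bases 1 to 30: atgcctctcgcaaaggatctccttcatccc
Rps27rt, bases 1 to 30: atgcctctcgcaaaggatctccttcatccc
Rps27, bases 176 to 205: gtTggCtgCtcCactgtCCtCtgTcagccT
Rps27l, bases 176 to 205: gtGggTtgTtcAactgtGTtGtgCcagccC
The stretch from base 176 holds 9 differences, and Rps27l read 119, 128 and 147 normalized counts in the Hetero samples and 155, 114 and 141 in the WT samples, with overlapping groups.

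Another 4 genes shared their signal with a copy to a large degree. Rpl27-ps3, a processed pseudogene on chromosome 18, held 89.2% of the sum with Rpl27, the gene given above as 1 of the lowest per kb. Rpl10-ps3 on chromosome 9, typed as protein coding, held 54.9% of the sum with Rpl10, Rps23-ps1 51.9% with Rps23 and Rpl10a-ps1 49.1% with Rpl10a, at coding identities of 100%, 98.4% and 99.7%. Of the 20 ribosomal protein genes with tested copies, summing gene and copies turned the direction of 2, Rpl10 and Rpl15. Rpl15 fitted -0.05 alone and 0.02 with Rpl15-ps3, and the sum read 4149, 4133 and 4402 normalized counts in Hetero and 4437, 4126 and 3984 in WT samples, with overlapping groups. The own row of Rpl10 fitted -0.02, but with its 2 copies the sum read 4362, 4395 and 4942 normalized counts in the Hetero samples and 4384, 4282 and 4324 in the WT samples, a log2 change of 0.07. Rpl14 with Rpl14-ps1 gave 2519, 2653 and 3027 in Hetero and 2479, 2465 and 2418 in WT samples. All Hetero sums of Rpl14 were above all WT sums, the only 1 of the 20 sums whose groups did not overlap, with a log2 change of 0.15 for the sum and 0.08 for the gene alone. Rpl27 with its copy gave 2038, 1920 and 2207 in Hetero and 2129, 2103 and 2158 in WT samples, a log2 change of -0.05, and Hetero sample 3 was then the highest sample.

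**Figure D4:**
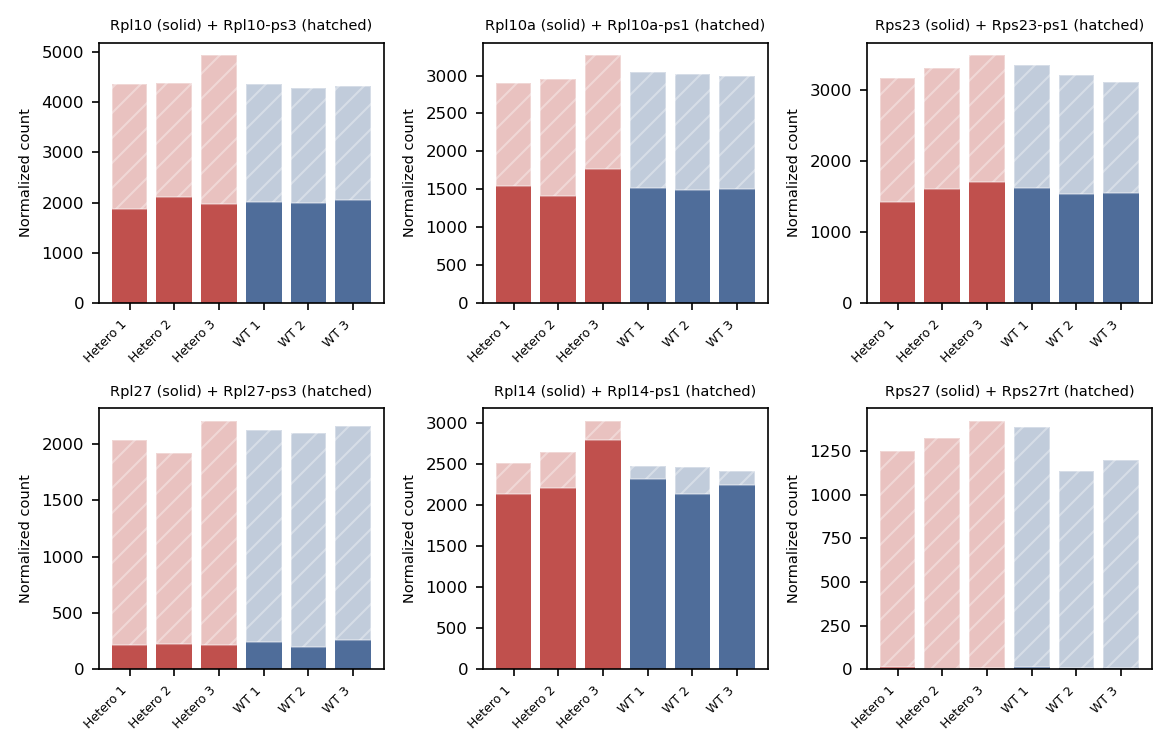
Normalized counts of 6 genes (solid) and of 1 near-identical copy each (hatched, stacked on top) in the Hetero samples (red) and the WT samples (blue). The copy holds most of the signal in the pairs of Rpl27 and Rps27, and about as much as the gene in those of Rpl10, Rpl10a and Rps23.

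Some copies were uneven between samples of 1 group. Rpl15-ps3, identical to Rpl15 over 615 coding bases, read 204, 293 and 268 normalized counts in the Hetero samples and 196, 0 and 0 in the WT samples. A pair of WT samples was listed at 0 while WT sample 1 lay near the Hetero samples, so the groups differed in how many samples had a value. Rps6-ps4 read 429, 172 and 153 in Hetero and 207, 506 and 128 in WT samples, high in 1 sample of each group. Rps12-ps3, which M21 types as protein coding, read 2823, 3435 and 3640 in Hetero and 3284, 3119 and 3026 in WT samples; Rps12 itself was not analysed here. These rows are uncertain because reads of identical copies can be assigned to either.

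A further 7 genes of the ribosome or its paralogs have names that the rule leaves out. Fau, a fusion of a ubiquitin-like protein with a 40S protein, read 562, 528 and 535 normalized counts in Hetero and 516, 539 and 486 in WT samples. Its log2 change of 0.08 ± 0.08 was within the range of the 75 genes. Rack1, a signalling scaffold on the 40S head, read 4693, 4997 and 5463 in Hetero and 4820, 5232 and 5476 in WT samples, and Rps3a1 4586, 4651 and 5236 in Hetero and 4949, 4491 and 4681 in WT samples. The log2 changes of Rack1, Rps3a1, Rpl36al, Rpl7l1 and Rpl22l1 were -0.04, 0.03, 0.05, 0.02 and 0.01, and in all 7 genes the groups overlapped. Hetero sample 3 was the highest in 4 of the 7, and their level was -0.07, 0.0029 and 0.12 in Hetero samples 1, 2 and 3, against -0.01, -0.01 and -0.03 in WT samples 1, 2 and 3.

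Other genes of the pathway were set beside the ribosomal protein genes as lists. No gene of any list passed the adjusted threshold in limma. A list of 26 genes named for TOP messages held mostly translation factors, along with genes of other roles such as Vim, an intermediate filament protein, Nap1l1, a histone chaperone, and Hnrnpa1, a splicing factor. Of the 26, 18 had a positive fitted change and the median was 0.02, or 0.07 without Hetero sample 1 and 0.01 without Hetero sample 3, with 1 gene higher and 0 lower at an unadjusted p of 0.05. That gene was Eef1g, of the elongation factor 1 complex, which read 5212, 5371 and 5217 in Hetero and 4810, 4907 and 4835 in WT samples, with each Hetero sample above each WT sample and a log2 change of 0.12 ± 0.05. Eef1a2, the form of elongation factor 1A in mature neurons, read 28925, 30632 and 33577 in Hetero and 27019, 29208 and 28711 in WT samples, where WT sample 2 exceeded Hetero sample 1. The level in Hetero sample 3 was 0.14 for the ribosomal protein genes and 0.06 for this TOP list. Their median transcript lengths were 729 and 1940.5 bases. The difference in level, and the part of length in it, was not tested.

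The level of ribosome biogenesis genes was not highest in Hetero sample 3. Their median transcript length was 2597 bases, and the part of length was not tested. Of 73 biogenesis genes 47 were fitted higher, with a median log2 change of 0.03, and their level in Hetero samples 1, 2 and 3 was 0.04, -0.0039 and 0.01, against 0.01, -0.01 and -0.05 in WT samples 1, 2 and 3. That median was 0.0087 without WT sample 3 and 0.02 without Hetero sample 1. Rpf2, an assembly factor that brings the 5S particle of Rpl5 and Rpl11 to the 60S precursor, read 336, 300 and 336 normalized counts in Hetero and 251, 273 and 264 in WT samples, with groups that did not overlap and a log2 change of 0.30 ± 0.10. Rrp1b, of the same list, read 455, 482 and 375 in Hetero and 374, 374 and 284 in WT samples, with Hetero sample 3 just above the highest WT samples. Both had an adjusted p of 1.00 (limma, Benjamini-Hochberg over all genes). Of 20 genes of RNA polymerase I and its factors, 14 were fitted higher with a median of 0.06, or 0.02 without Hetero sample 3. Ttf1, the polymerase I terminator factor, read 321, 270 and 283 in Hetero and 339, 450 and 445 in WT samples, below every WT sample, with a log2 change of -0.49 ± 0.13. Taf1b, of the selectivity factor, read 500, 481 and 467 in Hetero and 413, 421 and 441 in WT samples, above every WT sample, with a log2 change of 0.18 ± 0.08; neither passed the adjusted threshold.

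**Figure D5:**
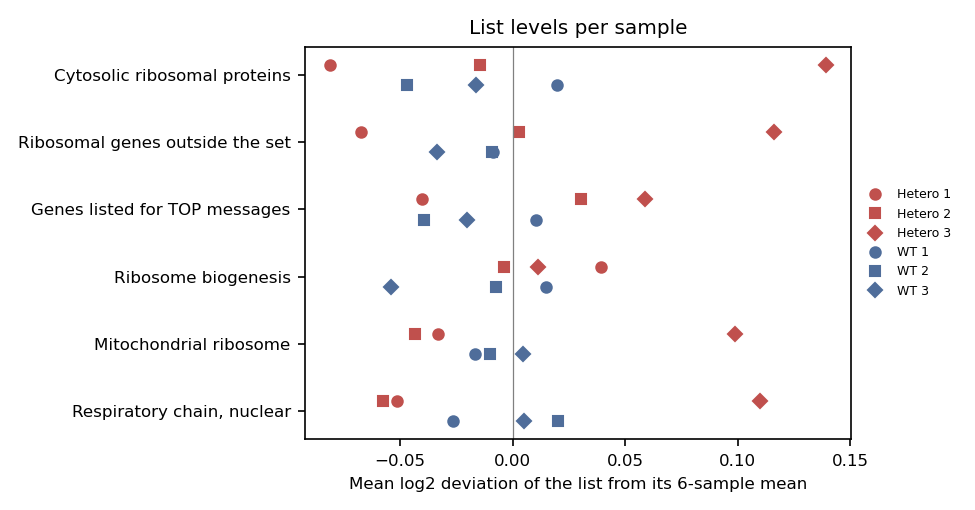
Mean log2 deviation of 6 gene lists from their 6-sample means in each Hetero sample (red, upper row of each list) and each WT sample (blue, lower row). Hetero 3 lies farthest right for the cytosolic ribosomal proteins (0.14), the ribosomal genes outside the set (0.12), the respiratory chain (0.11) and the mitochondrial ribosome (0.10), and not for ribosome biogenesis (0.01).

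Nuclear genes of the mitochondrion also lay highest in Hetero sample 3, at smaller size. Of 78 mitochondrial ribosomal protein genes, 44 were highest in Hetero sample 3, with a list level of 0.10 there, and 49 were fitted higher with a median log2 change of 0.03, which was -0.02 without Hetero sample 3. Mrpl47 and Mrps5, the 2 with the smallest p, had log2 changes of -0.38 ± 0.17 and -0.22 ± 0.12, and both had overlapping groups. Of 74 nuclear respiratory chain genes, 56 were highest in Hetero sample 3, but 36 were fitted higher and the median change was -0.0019, or -0.06 without Hetero sample 3 and 0.02 without Hetero sample 2. Their median transcript length of 738 bases was close to that of the ribosomal protein genes. Sdha had a log2 change of -0.07 ± 0.05 and Cox7b of 0.06 ± 0.06. Of 13 mitochondrially encoded transcripts 11 were fitted lower, with a median of -0.10, and none passed the adjusted threshold. All Hetero values lay below all WT values in 6 of the 13, against 4.32% of all tested genes. The 2 with the smallest p, mt-Nd4 and mt-Nd5, had log2 changes of -0.14 ± 0.04 and -0.22 ± 0.08. Taking these transcripts out of the total left the ribosomal share at 0.861%, 0.894% and 1.01% in Hetero samples 1, 2 and 3, against 0.916%, 0.879% and 0.900% in WT samples 1, 2 and 3, with Hetero sample 3 highest and Hetero sample 1 lowest.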

How the data were processed

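The deposited table gives normalized counts by gene and sample, treated as signal values since they are not whole; per the labels' protocols the libraries were stranded mRNA libraries. The submitters' processing notes list GRCm38, DESeq2 1.19.11, Salmon 0.11.2 and R 3.6.0, with no roles; annotation and scaling are not given. Whole reads could not be recovered: at the best step only 15.5% to 28.1% of values below 60 came out whole (within 0.02 of a step), so no count test was run. Groups were taken from the sample titles, and 0 columns of per-sample values were left out. Of 17889 identifiers, 17875 matched GENCODE M21, which gives names, types and lengths (the shortest complete principal transcript).

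The 14969 genes whose mean reached 10 were fitted on log2(value + 1) with limma 3.58.1 in R 4.3.3 (trend, robust), tested two-sided and adjusted by Benjamini-Hochberg over all of them at 0.05; low genes' changes are understated on this scale. The spread within groups is the pooled SD of the log2 values. Exact permutation tests were used for Cyfip2 and the paralog ratios. Levels per kb use the transcript length, and promoter windows are RefSeq's on GRCm38.p6. The scaled values hide depth, so shallow libraries carry more counting error. The members, lists and tests were chosen with earlier results of these data known. Genes were named by a rule: 22 genes with known roles; the 6 smallest p in each direction; 4 at each end of level per kb, of spread and of the sample that stood apart; the paralog pairs; the ribosomal genes outside the set; and the 2 smallest p of each pathway list. Of the genes this rule names, 2 are not reported here. The copies were added after their values were seen. Alternatives were other limma settings, scalings, filters (none, or a mean from 50 up), pseudocounts 0.5 and 8, removal of length and GC trends by splines with 4 degrees of freedom, a replicate block, each sample left out in turn and, added after seeing the data, leaving out the 2 deepest libraries and summing genes with their copies. The procedure was tested on simulated data.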

Additional observations from a re-analysis of the deposited data

How the results depend on the processing

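No ribosomal protein gene passed an adjusted p of 0.05 in limma under any of the alternatives run; the smallest adjusted p among them was 0.93 to 1.00, except 0.32 without the 2 deepest libraries, where 6 genes had an unadjusted p under 0.05. The count with a fitted change above 0, 54 of 75, ran from 23 (without Hetero sample 3) to 70 (without Hetero sample 1) when single samples were left out, was 30 without the 2 deepest libraries, and was 51 to 54 under the other settings. Their median log2 change of 0.03 ran from -0.04 to 0.07 when single samples were left out, and was -0.02 without the 2 deepest libraries. When single samples were left out, the log2 change of Rpl39 ran from -0.117 to 0.0108 (without Hetero sample 1), that of Rps28 from -0.159 to 0.0271 (without Hetero sample 1), the Rpl22l1 to Rpl22 ratio from -0.106 to 0.0627 (without Hetero sample 1) and the Rplp1 to Rplp2 ratio from -0.0226 (without WT sample 2) to 0.0705. With copies summed, the log2 change of Rpl10 was 0.0744 and that of Rpl15 0.0165, and the groups of Rps16 overlapped. The cause of these changes was not tested.

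The residuals of same-numbered samples correlated at -0.0050, 0.0044 and 0.23 for numbers 1, 2 and 3, and those of other pairs at -0.18 to 0.18. With 3 samples a group the residuals are tied to each other, so they cannot settle whether the replicate numbers pair the samples. With the numbers as a replicate block, no ribosomal protein gene was called and 1 had an unadjusted p under 0.05, 54 had a fitted change above 0, and Cyfip2, at -0.57, had an adjusted p of 0.0016. Cyfip2 also passed with length and GC trends removed, at -0.56 with an adjusted p of 0.022. Over all 16 alternatives its adjusted p ran from 0.0016 to 1.00 and its log2 change from -0.63 to -0.46. With 3 samples a group and the shallower libraries at about 25500000 reads, the 95% interval reached beyond a 1.25-fold change in 6 of the 75 genes.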
